A study of Mus musculus with 48 samples.

Results

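The colon of HL offspring was compared with that of HH offspring: *HH vs. HL* asks what the post-weaning diet alone does to gene expression in the colon when the dam's diet was high throughout. Of the 48 arrays of the series, 12 belong to this comparison, 6 from HH and 6 from HL colons, chosen by the tissue and the diet letters in their titles. The mice were C57/BL6 offspring aged 12 weeks. A group is named by the dam's diet in gestation and lactation and then by what the offspring ate from weaning on. H is a high-fat diet supplemented in Se and folate, and L the same high-fat diet marginally deficient in both. HH mice therefore met diet H throughout, and HL mice met diet H through the dam and diet L from weaning on. By the study's methods, diet H lay above the recommended requirements for both nutrients and diet L below them. All animals of both groups ate a high-fat diet, Se and folate were always lowered together, and whole colon was extracted, so the effects of the 2 nutrients cannot be told apart and the RNA is that of epithelium, muscle, nerve and immune cells combined. The study describes the offspring as male, and they were fasted and fed again before sampling. It does not name the dam or litter of each mouse, so whether a group holds littermates cannot be told. The LH and LL colons, 6 of each, and the HH and HL livers were used only for contrast.

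Selenium reaches the cell as selenocysteine in selenoproteins such as the glutathione peroxidases and thioredoxin reductases, whose mRNAs differ in how far they are kept up when selenium is short. Folate carries the carbon units that make thymidylate and purines for DNA synthesis and that feed the methionine cycle, the source of methyl groups. The colonic epithelium is renewed within days from dividing cells at the base of the crypts, which makes it a tissue with a high demand for deoxynucleotides.

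The values are log2 ratios of mouse colon RNA (Cy3 dye) over a common reference RNA (Cy5 dye), which the series' design text and the study's methods describe differently, as RNA of a whole pregnant mouse or as pooled RNA of the mice's own intestines and livers. The reference is the same on both sides of a comparison, and a difference is the mean of HL minus the mean of HH on that scale, with its standard error (SE). Each of the 6 colon slides carried 1 array of every group, so the slide was a block in the limma fit, and a within-slide difference is 1 HL array minus the HH array beside it. Between 67.6% and 73.7% of the spots were well above background on the 12 arrays. *Xist*, the RNA that coats the inactive X chromosome of female cells, did not go with male offspring on 3 of them: its Cy3 signal was 11.80 on a log2 scale on HH replicates 1 and 5 and 13.08 on HL replicate 5, against 6.16 to 7.95 on the other 9 arrays. *Eif2s3y*, a Y-linked gene, read 6.06 on HL replicate 5 but 10.69 and 10.09 on HH replicates 1 and 5, against 11.00 to 11.54 on the other 9. These arrays were kept, and the leading results are also given without the 6 of 24 colon arrays on which *Xist* was high, the other 3 being LL. All 34 measured marker genes of absorptive colonocytes were well above background on at least 6 of the 12 arrays. So were 15364 of all 18434 genes and all 16 measured genes of pancreatic acinar cells, so this count does not mark colonocytes.

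No probe passed the test in *HH vs. HL*: 0 of 41172 probes (0%) had an adjusted p below 0.05 with a fold change above 1.5, and the lowest adjusted p in limma was 1. At an unadjusted p below 0.05 there were 1350 probes, 3.28% of those tested, 599 higher and 751 lower in HL. The share lower in HL was 55.6%, and it ran from 47.7% with only the HH and HL arrays fitted to 69.7% with the processed signals of the scanner software. The differences were small, with 99.9% of probes under 0.5 on the log2 scale. Taking 1 probe per gene, 9127 of 18434 genes lay below 0 and 9307 above. At an unadjusted p below 0.05, 368 genes were lower in HL (2%) and 247 were higher (1.34%). With each array centred on its median in place of loess these counts were 367 and 615, and the median of all genes was 0.04. Everything that follows is therefore a description of differences that did not pass the adjusted threshold, each gene having an adjusted p of 1 for HL minus HH, and differences are given with their SE, with p below 0.05 always meaning the unadjusted p of limma.

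**Figure D1:**
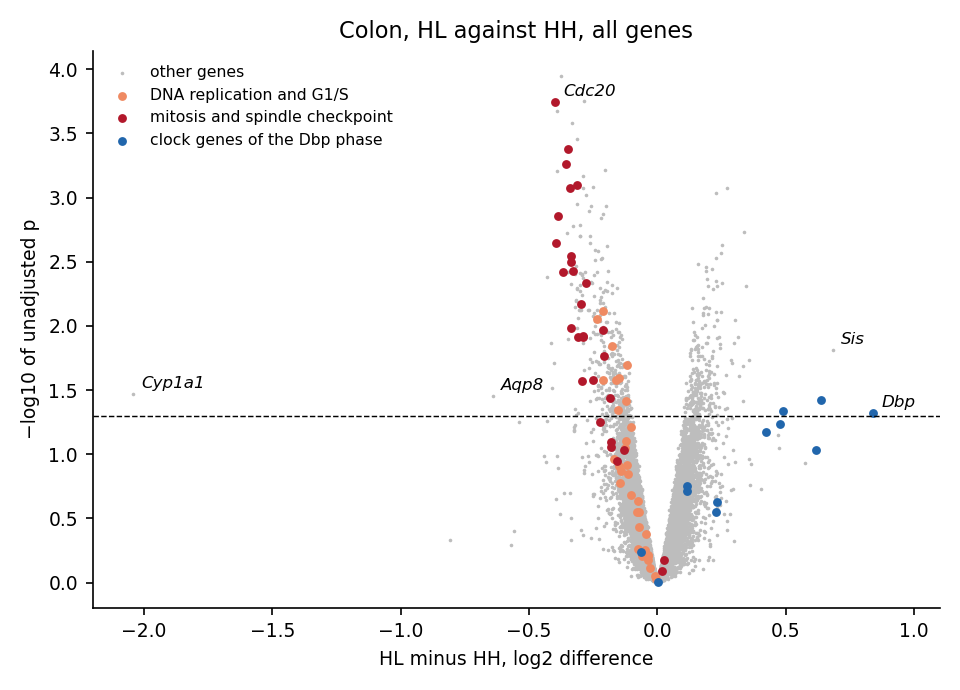
Log2 difference HL minus HH (horizontal axis) against −log10 of the unadjusted p (vertical axis) for each of the 18434 genes in the colon, with 3 gene lists coloured and the dashed line at an unadjusted p of 0.05. The genes of mitosis crowd the upper left edge, with *Cdc20* at −0.40, while the clock genes lie to the right, with *Dbp* at 0.84, and *Cyp1a1* lies alone at −2.04.

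Of 37 gene lists, sex-linked genes left aside, that of mitosis had the lowest median in HL. The lists were chosen with earlier results of these data known, so the rank of a list is not independent of these data. Of 29 measured genes of the mitosis and spindle checkpoint list, 27 were below 0 and 22 had an unadjusted p below 0.05, all of them lower in HL, where the background was 2% of genes. Their median difference was −0.29, which is 18.4% lower, beside 0.00 over all genes. *Cdc20*, the activator of the anaphase-promoting complex, had the lowest p of the list. Its log2 ratio ran from −0.77 to −0.13 in HH with a median of −0.47, and from −1.23 to −0.49 in HL with a median of −0.80. The HL arrays thus lay lower as a group but overlapped those of HH. The difference was −0.40 (SE 0.09), lower on 5 of 6 slides.

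*Plk1*, a kinase that drives entry into mitosis and spindle assembly, ran from −0.57 to −0.13 in HH (median −0.33) and from −1.003 to −0.06 in HL (median −0.74), a difference of −0.35 (SE 0.08). *Ccnb2*, a B-type cyclin of the mitotic kinase, ran from −0.43 to 0.18 in HH (median −0.18) and from −0.70 to −0.28 in HL (median −0.50), a difference of −0.36 (SE 0.09). For both, 5 of 6 HL arrays lay below the array beside them on the slide. The other members named here were picked after their values were seen, by role. The kinases *Aurka* (−0.31) and *Aurkb* (−0.34), the cyclins *Ccna2* (−0.37) and *Ccnb1* (−0.33) and their partner *Cdk1* (−0.31) lay at much the same level. So did *Ube2c* (−0.34), which passes ubiquitin to the targets of *Cdc20*, the centromere proteins *Cenpa* (−0.34) and *Cenpe* (−0.40), and *Mki67* (−0.29), the gene of the Ki-67 antigen used to stain cycling cells. With the probes shown, the spindle checkpoint was uneven, since *Mad2l1* (−0.28) and *Bub1b* (−0.21) were lower whereas *Bub1* (0.02, SE 0.06) and *Bub3* (0.02, SE 0.08) lay at 0. All 29 genes of the list were below 0 with the mean over all probes of a gene, with the Cy3 channel alone and without HL replicate 4. Other members also differed by less, among them *Cdc25c* (−0.13), *Ndc80* (−0.16), *Top2a* (−0.18), *Kif11* (−0.18) and *Kif23* (−0.18).

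The array means of the list show how the groups lie. Each gene was centred on its mean over the 24 colon arrays and the list averaged on each array. The 6 HH arrays read from 0.01 to 0.35 with a median of 0.12 and the 6 HL arrays from −0.27 to 0.17 with a median of −0.13. Of the HL arrays replicate 6 alone stood within the HH range, and the other 5 lay below every HH array. The arrays of LH (−0.25 to 0.13, median −0.03) and LL (−0.28 to 0.27, median −0.04) reached into both ranges. Within slides the list differed by −0.60, −0.37, −0.29, −0.21 and −0.23 on slides 7 to 11 and by 0.10 on slide 12. The first of these slides holds HH replicate 1, on which *Xist* was high. On the 4 slides where neither array had high *Xist*, the differences were −0.37, −0.29, −0.21 and 0.10. Without the colon arrays of high *Xist* the list's median was −0.20 with 27 of 29 genes below 0, and 12 genes in place of 22 had an unadjusted p below 0.05. Without HH replicate 1 alone the median was −0.19 with 16 genes, and 13 genes were below that p when the slide was left out of the model or arrays were centred on their median. In bulk tissue, fewer dividing cells and less RNA per dividing cell cannot be told apart.

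**Figure D2:**
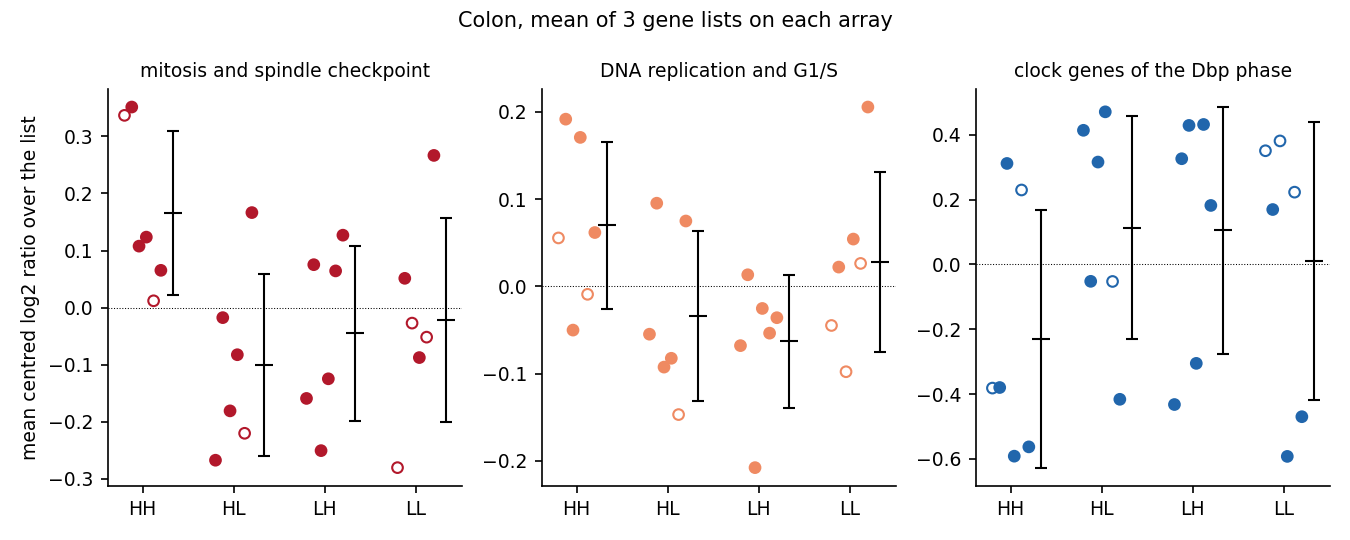
Mean centred log2 ratio (vertical axis) over the genes of mitosis, of DNA replication and of the clock's *Dbp* phase on each of the 24 colon arrays, by group, with the group mean ± SD beside the points. Open circles are arrays on which *Xist* was high; for mitosis all 6 HH arrays lie above 0 (0.01 to 0.35) and 5 of 6 HL arrays below it.

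The genes of mitosis are known to share elements near their start sites, and the promoters of 4 members are shown for that reason, from RefSeq on GRCm38.p6, from 110 bases before to 40 after the annotated start. Capitals mark TTTGAA, the core of the cell cycle homology region (CHR) to which the DREAM complex binds, and CCAAT, the box bound by NF-Y, both searched on either strand; no match of one overlaps the other.
Cdc20 (chr4:118437304-118437453, minus strand): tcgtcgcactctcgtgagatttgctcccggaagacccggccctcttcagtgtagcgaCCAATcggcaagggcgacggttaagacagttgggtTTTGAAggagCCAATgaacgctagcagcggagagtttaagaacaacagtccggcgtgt
Plk1 (chr7:122159325-122159474, plus strand): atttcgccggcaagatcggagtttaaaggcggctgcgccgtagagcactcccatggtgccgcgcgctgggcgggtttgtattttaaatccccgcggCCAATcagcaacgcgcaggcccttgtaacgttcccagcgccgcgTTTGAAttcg
Ccnb2 (chr9:70421515-70421664, minus strand): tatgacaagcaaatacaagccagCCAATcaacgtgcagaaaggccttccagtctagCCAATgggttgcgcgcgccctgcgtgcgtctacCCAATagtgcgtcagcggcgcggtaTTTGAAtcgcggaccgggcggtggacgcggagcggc
Aurka (chr2:172370531-172370680, minus strand): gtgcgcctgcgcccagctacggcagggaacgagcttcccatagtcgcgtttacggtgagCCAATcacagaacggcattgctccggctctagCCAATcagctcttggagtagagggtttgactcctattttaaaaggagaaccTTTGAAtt
Each of the 4 windows holds 1 TTTGAA and 1 to 3 CCAAT. In the full promoter of 300 bases, TTTGAA was found for 17 of the 24 measured mitosis genes with a promoter in the reference (70.8%). It was found for 20.2% of all 27025 genes, 17.1% of the 14662 tested on the array and 5 of 27 genes of DNA replication (18.5%). CCAAT was found for 20 of the 24 (83.3%), against 41.1% of all genes and 42.1% of those tested on the array. It was also frequent in other lists, with 16 of 27 genes of DNA replication (59.3%) and 7 of 10 clock genes of the *Dbp* phase (70%). The 17 genes with TTTGAA had a median difference of −0.29 and the 7 without it −0.33, so members with and without these letters lay at similar differences. A match is a description of these letters, not of binding.

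Genes of DNA replication and the G1/S transition went the same way by less. All 34 measured genes were below 0, beside 9127 of 18434 over all genes. Of the 34, 9 had an unadjusted p below 0.05, all lower in HL, against 2% of genes. The median difference was −0.11 (7.28% lower). *Gins2*, a subunit of the GINS complex of the replicative helicase, ran from 0.15 to 0.85 in HH (median 0.47) and from −0.10 to 0.54 in HL (median 0.28), a difference of −0.21 (SE 0.07). It was lower on all 6 slides, which 7 of the 34 genes were, where 1.51% of all genes were. *Prim1*, the catalytic subunit of primase, differed by −0.23 (SE 0.08) and *Gins1* by −0.18 (SE 0.07), each lower on 5 slides. The 6 genes of the MCM helicase lay from −0.13 (*Mcm7*) to −0.01 (*Mcm4*), and none of them had p below 0.05. Without the high-*Xist* arrays the median was −0.10, with 30 of 34 below 0 and 4 genes at p below 0.05. With each array centred on its median in place of loess, the median shrank to −0.03, 21 of 34 genes were below 0 and no gene had p below 0.05. The count of 9 was 1 with the slide left out of the model and 3 with the slide as a random block, and it was 3 without HH replicate 2, 5 without HL replicate 4 and 4 without HL replicate 5. TTGGCGC, a core of sites for the E2F factors, was found in the promoters of 8 of 27 of these genes (29.6%). It was found for 4.04% of the genes tested on the array, 2.85% of all genes and 3 of 24 mitosis genes (12.5%). Members with and without it were not compared.

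In the folate cycle and uptake list 2 of 26 measured genes were lower at an unadjusted p below 0.05 and 0 were higher; 13 genes lay below 0 and 13 above, with a median of 0.00. *Tyms*, thymidylate synthase, which uses a folate to make dTMP, ran from −0.08 to 0.21 in HH (median 0.12) and from −0.42 to 0.13 in HL (median −0.19). The difference was −0.25 (SE 0.08), 15.7% lower in HL. It was lower in HL on all 6 slides while the ranges of the groups overlapped, and without the high-*Xist* arrays it differed by −0.26.

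Neither folate transporter reached p below 0.05. *Slc19a1*, the reduced folate carrier, ran from −0.99 to −0.45 in HH (median −0.61) and from −0.81 to −0.36 in HL (median −0.47), a difference of 0.12 (SE 0.07), higher on 5 slides. *Slc46a1*, the proton-coupled folate transporter, ran from −2.14 to −1.82 in HH (median −1.95) and from −2.24 to −1.78 in HL (median −2.01), a difference of −0.05 (SE 0.06). *Mtr*, methionine synthase, differed by 0.00 (SE 0.09), with 0.27 to 0.67 in both groups and medians of 0.38 and 0.42. In the methionine cycle and methyl transfer list 0 of 21 genes had an unadjusted p below 0.05, and its median was 0.00; the lowest p belonged to the DNA methyltransferase *Dnmt3b* (0.08, SE 0.06), the methionine adenosyltransferase *Mat1a* (−0.10, SE 0.08) and *Dnmt3a* (−0.07, SE 0.06).

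Selenoprotein mRNAs differed little. Of 24 measured selenoproteins 1 was higher at an unadjusted p below 0.05 and 0 were lower, with 14 below 0, 10 above and a median of −0.02. *Sephs2*, selenophosphate synthetase, itself a selenoprotein and the enzyme that makes the selenium donor for selenocysteine, ran from −1.68 to −1.02 in HH (median −1.60) and from −1.64 to −0.69 in HL (median −1.35). Its difference was 0.20 (SE 0.07), 15.1% higher, on 5 of 6 slides, and it was 0.23 without the high-*Xist* arrays. The highest array of each group, replicate 3 of both, lies on the same slide.

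The glutathione peroxidases reduce hydrogen peroxide and lipid peroxides. *Gpx1*, known for an mRNA that drops when selenium is short, ran from −2.25 to −2.01 in HH (median −2.13) and from −2.29 to −1.97 in HL (median −2.03), a difference of 0.03 (SE 0.06). The gut form *Gpx2* ran from −0.14 to 0.80 (median 0.38) and from −0.05 to 0.56 (median 0.27), a difference of −0.09 (SE 0.08). *Gpx3*, the secreted form, ran from −3.08 to −2.63 (median −2.80) and from −3.07 to −2.66 (median −2.83), a difference of 0.01 (SE 0.06). The groups overlapped through most of their range for all 3. *Gpx4*, which reduces phospholipid hydroperoxides, ran from −1.18 to −0.86 (median −1.07) and from −1.22 to −0.88 (median −1.05), a difference of 0.01 (SE 0.06). In liver its difference was −0.42 (SE 0.10, adjusted p = 0.45), and colon minus liver was 0.42 (SE 0.14, adjusted p = 1).

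*Selenow*, a small selenoprotein whose mRNA is also known to follow selenium supply, ran from −0.49 to 0.19 in HH (median −0.40) and from −0.71 to −0.01 in HL (median −0.43). It differed by −0.13 (SE 0.06) and was lower on 5 slides. *Selenoh* ran from −1.02 to −0.27 (median −0.51) and from −0.93 to −0.43 (median −0.66), a difference of −0.09 (SE 0.07). *Msrb1*, a methionine sulfoxide reductase, ran from −1.21 to −0.67 (median −0.85) and from −1.14 to −0.79 (median −0.90), a difference of −0.01 (SE 0.06). For all 3 the arrays of the groups overlapped. *Selenop*, the plasma selenium carrier, ran from −1.41 to −0.51 (median −0.89) and from −1.28 to −0.87 (median −1.05), a difference of −0.15 (SE 0.11). *Txnrd1*, cytosolic thioredoxin reductase, ran from −0.07 to 0.57 (median 0.11) and from −0.24 to 0.55 (median 0.18), a difference of −0.06 (SE 0.08), and *Txnrd3*, its testis-type relative, differed by 0.13 (SE 0.08), higher on 6 slides. Of 11 genes of selenocysteine insertion and selenium uptake 0 had an unadjusted p below 0.05, among them the Selenop receptors *Lrp8* (0.13, SE 0.07) and *Lrp2* (−0.16, SE 0.10) and the selenocysteine tRNA-associated protein *Trnau1ap* (−0.07, SE 0.05).

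**Figure D3:**
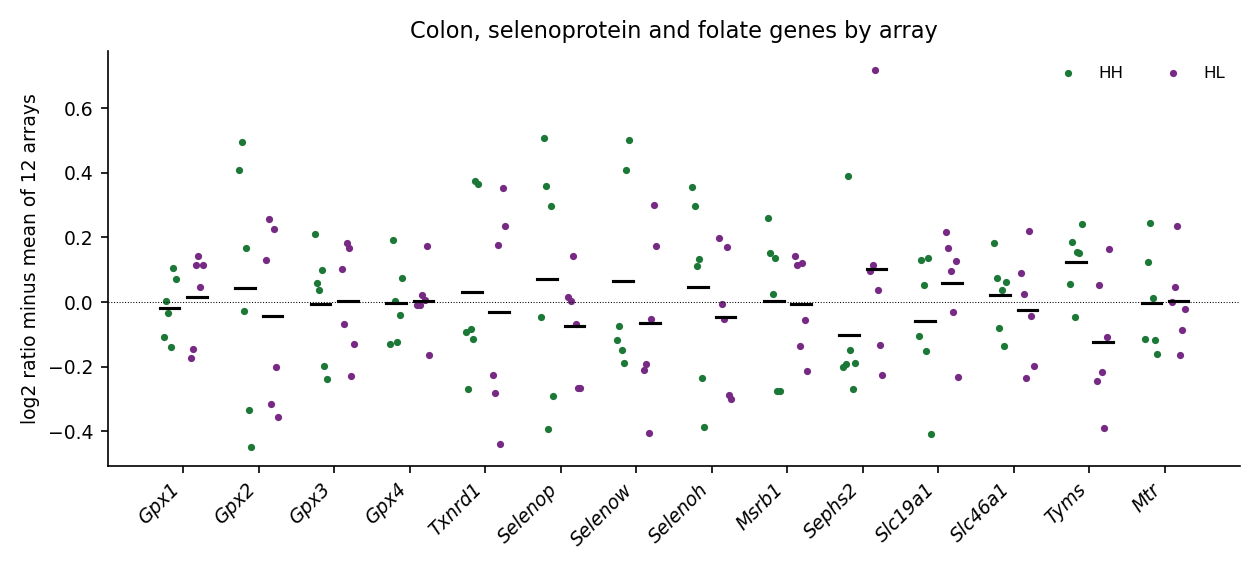
Log2 ratio of 14 selenoprotein and folate genes on each HH (green) and HL (purple) array, each gene centred on its mean of the 12 arrays; black bars are group means. The bars of *Tyms* stand apart by 0.25 and those of *Sephs2* by 0.20 the other way, while those of *Gpx1*, *Gpx3*, *Gpx4* and *Mtr* nearly meet.

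Redox genes outside the selenoproteins were near 0 as well. Of 29 measured Nrf2 and glutathione targets 1 was lower at an unadjusted p below 0.05 and the median was 0.02. That gene was *Txn1*, thioredoxin, the substrate of *Txnrd1*, at −0.17 (SE 0.07), lower on 5 slides. The regulator *Nfe2l2* (0.13, SE 0.07) and its inhibitor *Keap1* (0.09, SE 0.06) had the next lowest p. *Txn1* was also the 1 of 14 genes of the peroxiredoxin and superoxide dismutase list at p below 0.05, ahead of the mitochondrial *Txn2* (−0.11, SE 0.06) and the extracellular dismutase *Sod3* (0.14, SE 0.09).

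DNA repair and protein folding held a few members that lay lower. In the p53 and DNA damage list 3 of 30 genes were lower at an unadjusted p below 0.05, against 2% of genes, and the median was −0.03. That count ran from 0 to 4 over the alternatives, and the median from −0.05 to 0.05. *Brca2*, a gene of homologous recombination, was one of the 3 at −0.18 (SE 0.08). *Hspe1*, the co-chaperonin of mitochondrial Hsp60, differed by −0.27 (SE 0.09) and was lower on all 6 slides, with −1.10 to −0.55 in HH and −1.33 to −0.73 in HL. It stands in both the mitochondrial import list, of which 26 of 30 genes were below 0 and 2 had p below 0.05 (*Timm10*, a chaperone of membrane proteins on import, −0.11, SE 0.05, with *Timm17b* next at −0.08), and the heat shock list, where it was the 1 of 16. Over all genes, 9127 of 18434 lay below 0 and 2% were lower at p below 0.05. With arrays centred on their median, 5 of the 30 import genes were below 0 and none had p below 0.05. The import list's median then turned from −0.05 to 0.04, the median of all genes under that setting. The import median was −0.03 without HH replicate 4 and −0.02 without HL replicate 4. *Hsp90aa1* (−0.29, SE 0.18) and *Hspa1a* (−0.20, SE 0.16) had larger errors. In the list of ER chaperones, *Herpud1* was the 1 of 25 genes at p below 0.05 (0.13, SE 0.06), followed by *Dnajb11* (−0.14, SE 0.09) and *Creld2* (−0.18, SE 0.12).

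The clock list of the *Dbp* phase had the highest median of the 37. Genes of the *Dbp* phase are driven by the CLOCK and BMAL1 proteins and peak together near the end of the light period, while *Arntl*, the gene of BMAL1, and *Nfil3* peak opposite to them. Of 12 *Dbp*-phase genes 11 were above 0 and 3 had an unadjusted p below 0.05, against 1.34% of genes, with a median of 0.33 (25.4% higher). *Dbp*, the D-box transcription factor, ran from −0.37 to 1.68 in HH (median 0.43) and from 0.21 to 2.44 in HL (median 1.30), a difference of 0.84 (SE 0.40). Its relative *Tef* ran from −1.50 to 0.01 in HH (median −1.33) and from −1.10 to 0.19 in HL (median −0.30), a difference of 0.64 (SE 0.29). The repressor *Nr1d1* ran from −0.03 to 1.09 (median 0.48) and from 0.29 to 1.49 (median 1.11), a difference of 0.49 (SE 0.23). *Ciart*, a further repressor of the clock, differed by 0.62 (SE 0.35), higher on 3 slides and lower on 3.

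The spread within each group was as wide as the difference. Over the 12 genes the array means ran from −0.59 to 0.31 in HH and from −0.42 to 0.47 in HL, and the slides differed by −0.28 to 1.06. The array means of LH ran from −0.43 to 0.43 and those of LL from −0.59 to 0.38. The medians were −0.38 in HH, 0.13 in HL, 0.25 in LH and 0.20 in LL. HH was thus the group with the lowest median, while LH, also on diet H from weaning, lay above HL. All 6 *Arntl*-phase genes were below 0, with a median of −0.11: *Arntl* at −0.39 (SE 0.23), *Nfil3* at −0.43 (SE 0.26) and *Cry1* at −0.13 (SE 0.12). That median was −0.04 without HL replicate 4, −0.17 without HL replicate 3 and −0.31 with the processed signals, and with arrays centred on their median 4 of the 6 genes were below 0. The sources give no time of sampling for each mouse, and its part in these values was not tested. The count of 3 was 0 without HL replicate 1, without HL replicate 4 and without any of HH replicates 1, 2, 4 and 6, and was 6 without HL replicate 5, while the median ran from 0.17 to 0.48 over all alternatives. Without the high-*Xist* arrays it was 4, with a median of 0.48, and with the slide left out of the model it was 0. The E-box CACGTG, the sequence that CLOCK and BMAL1 bind, was found in the promoters of 4 of 10 of these genes (40%). It was found for 9.9% of the genes tested on the array and 8.09% of all genes. The list is one of genes driven by CLOCK and BMAL1, so these matches do not bear on HL minus HH. Members with and without the E-box were not compared.

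Genes of fatty acid use lay slightly above 0. Of 28 genes of fatty acid oxidation and PPAR targets 22 were above 0, beside 9307 of 18434 over all genes, with a median of 0.06. At an unadjusted p below 0.05, 3 were higher, against 1.34% of genes. That count ran from 0 to 3 over the alternatives and was 1 without the high-*Xist* arrays, and the median ran from 0.03 to 0.15. Within slides the list differed by 0.34 on slide 9, by 0.03 to 0.07 on slides 7, 10 and 11, and by −0.02 and −0.13 on slides 8 and 12. *Cpt1a*, which admits fatty acids to the mitochondrion, differed by 0.16 (SE 0.06), the uncoupling protein *Ucp2* by 0.15 (SE 0.06) and the thioesterase *Acot2* by 0.17 (SE 0.08). *Cpt1a* and *Ucp2* were higher on all 6 slides, as 1.43% of all genes were. No gene of the 30 of cholesterol and fatty acid synthesis had p below 0.05 (*Srebf2* 0.10, *Fdps* −0.12, *Idi1* −0.13). The same held for the 24 of zinc and iron transport, led by the zinc and iron carrier *Slc39a14* (0.22, SE 0.12), the ferroxidase *Heph* (0.14, SE 0.08) and the zinc importer *Slc39a10* (−0.12, SE 0.07).

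*Cyp1a1*, the aryl hydrocarbon receptor target that oxidises plant and polycyclic compounds, had the widest difference of any gene. It ran from −4.53 to 3.10 in HH (median −1.01) and from −4.29 to −0.13 in HL (median −3.54), which is a difference of −2.04 (SE 0.90). The range within HH alone was more than 3 times that difference, and the HL arrays lay inside it. The highest HH array was replicate 4, and without it the difference was −1.11. Of 24 xenobiotic enzymes it was the 1 at p below 0.05, with the glucuronosyltransferases *Ugt1a1* (0.21, SE 0.10) and *Ugt2b34* (0.16, SE 0.10) behind it.

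Among the epithelial lists, absorptive colonocytes held 3 of 34 genes at an unadjusted p below 0.05, 2 lower and 1 higher, with a median of 0.04. *Aqp8*, a water channel of surface colonocytes, ran from −3.74 to −0.58 in HH (median −3.45) and from −3.96 to −3.31 in HL (median −3.62), a difference of −0.64 (SE 0.28). *Aqp4*, a basolateral water channel, ran from −2.44 to −0.73 (median −2.03) and from −2.67 to −1.88 (median −2.32), a difference of −0.41 (SE 0.18). Both were lower on all 6 slides, and for both HH replicate 4 stood far above the other HH arrays; without it they differed by −0.21 and −0.20. The phosphate transporter *Slc20a1* differed by 0.24 (SE 0.11). *Sis*, sucrase-isomaltase, a brush-border enzyme of the small intestine and one of the few genes above a fold of 1.5, ran from −4.15 to −2.65 in HH (median −3.16) and from −3.08 to −1.64 in HL (median −2.69), a difference of 0.68 (SE 0.26), higher on 5 slides.

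The other epithelial lists had medians between −0.04 and 0.04. Of 19 goblet cell genes 1 was lower at an unadjusted p below 0.05, *Spink4* at −0.24 (SE 0.09), followed by *Retnlb* (−0.54, SE 0.27), a secreted antimicrobial protein that was also highest on HH replicate 4, and *Atoh1* (0.20, SE 0.11), the transcription factor of the secretory lineage. Wnt targets and crypt stem cell genes had 0 of 22 at p below 0.05 and a median of 0.02 (*Znrf3* 0.13, *Lrig1* 0.09, *Prom1* 0.13), beside the median of −0.29 for mitosis. Of enteroendocrine genes 0 of 20 had p below 0.05 (*Chgb* 0.13, *Insl5* −0.23, *Scg2* 0.11), and of tuft cell genes 0 of 11 (*Pou2f3* −0.05, *Tas1r3* −0.05, *Avil* −0.06).

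The lists of immune cells and of the colon wall had medians between −0.05 and 0.08. B cells and plasma cells (*Tnfrsf13b* −0.10, *Sdc1* 0.12), T cells (*Nkg7* −0.10, *Zap70* −0.08), interferon response genes (*Irgm1* 0.25, *Irf1* 0.07, *Ifit3* 0.20), inflammation and antimicrobial genes (*Il22* −0.13, *Cxcl5* −0.10, *Tlr4* −0.13) and immediate early genes (*Zfp36* −0.12, *Ccn1* 0.18, *Klf6* −0.13) held 0 genes at an unadjusted p below 0.05. The interferon list had a median of 0.08 with 18 of 24 genes above 0, and its array means ran from −0.26 to 0.26 in HH and from −0.85 to 0.51 in HL, where the lowest was replicate 5, of high *Xist*. Its median was 0.21 without that array, 0.16 without all the high-*Xist* arrays (all 24 genes above 0, with *Irgm1* at p below 0.05) and 0.17 with median centring. It was 0.00 with 12 genes above 0 without HL replicate 3, 0.04 without HH replicate 2 and 0.05 without HL replicate 6. *Cd163*, a scavenger receptor of tissue macrophages, was the 1 of 21 genes of macrophages and dendritic cells (0.27, SE 0.13), with *Xcr1* at −0.06 and *Itgax* at 0.12. *Timp1*, an inhibitor of matrix metalloproteinases, was the 1 of 19 fibroblast and matrix genes (−0.17, SE 0.07), lower on 6 slides, with *Pdgfrb* at 0.13 and *Col6a1* at 0.09. Smooth muscle (*Ptgis* 0.10, *Pgm5* −0.12), endothelium (*Tie1* 0.08, *Emcn* −0.09, *Eng* −0.06) and enteric neurons and glia (*Nefm* 0.11, *Snap25* 0.14, *Gap43* 0.13) held none, and their medians were −0.04, 0.00 and 0.03.

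Markers of cells from outside the colon wall were read in the same way. Adipocyte genes had a median of 0.04 over 13 genes (*Cidea* −0.06, *Lipe* 0.07, *Lep* −0.16), pancreatic acinar genes −0.02 over 16 (*Clps* 0.15, *Cela1* −0.14, *Try5* −0.09), skeletal muscle genes −0.01 over 14 (*Mb* −0.06, *Acta1* 0.10, *Myh4* 0.08) and erythroid genes 0.00 over 6 (*Epb42* −0.05, *Hbb-bt* 0.07), with 0 at an unadjusted p below 0.05 in each. The list means of adipocytes ran widely between slides, from −1.11 to 0.69. Of the sex-linked genes, *Ddx3y* (−0.56, SE 0.65), *Eif2s3y* (−0.57, SE 0.86) and *Xist* (−0.81, SE 1.08) carried the spread of the 3 arrays named above.

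**Figure D4:**
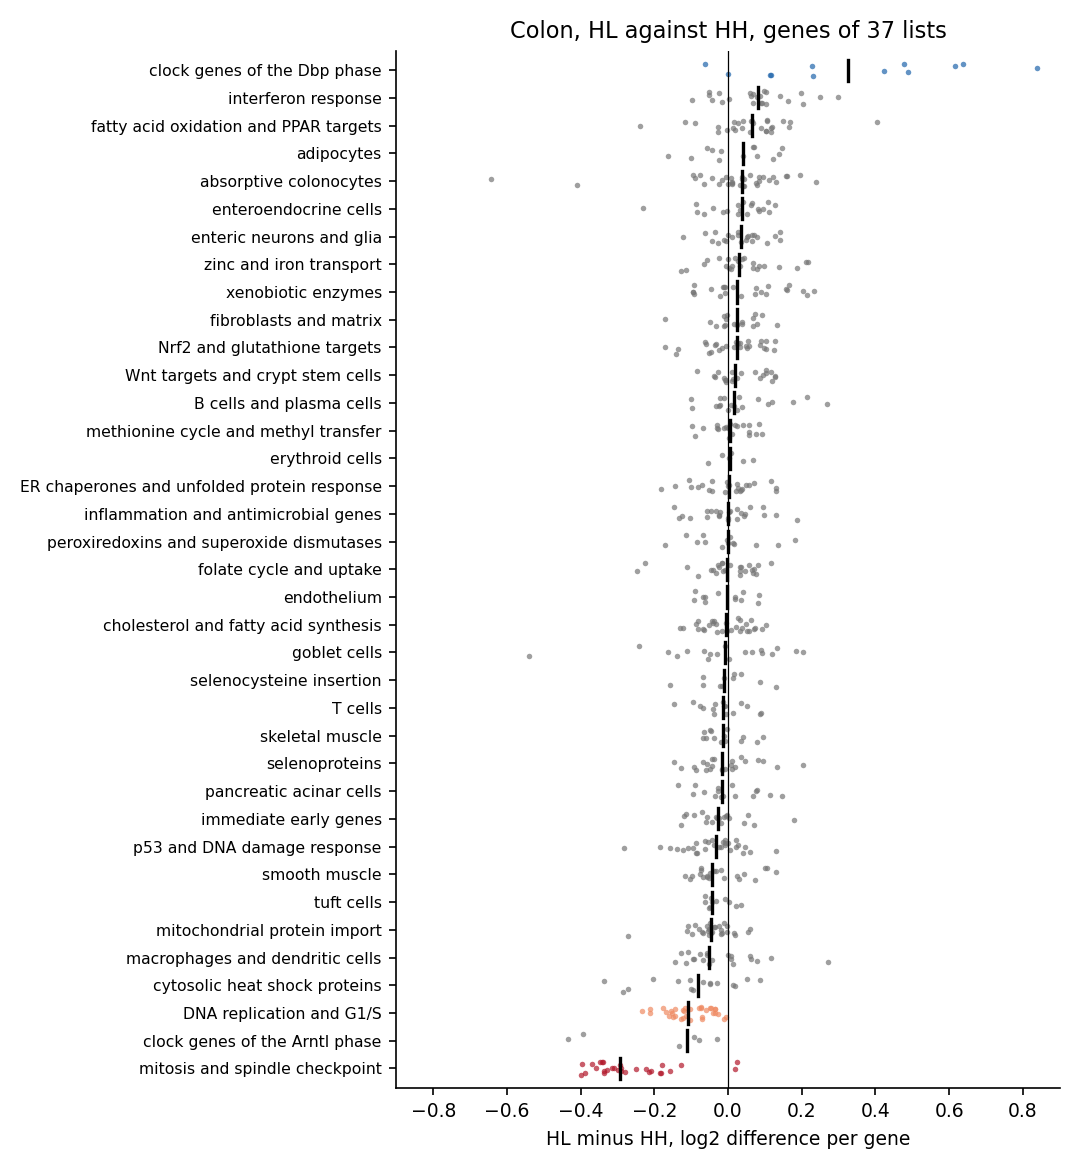
Log2 difference HL minus HH (horizontal axis) of each measured gene in 37 gene lists (rows, ordered by median; black bars are medians). Mitosis lies at the bottom with a median of −0.29 and the *Dbp* phase of the clock at the top with 0.33, and the other medians fall between −0.11 and 0.08; *Cyp1a1*, a xenobiotic enzyme at −2.04, lies beyond the axis.

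The same change of offspring diet under dams on diet L, LL minus LH, gave a list median of 0.03 for mitosis and 0 of 29 genes had an unadjusted p below 0.05 in either direction. The test of the difference between the 2 contrasts, which share no array, had p below 0.05 for 16 of 29 genes, all with LL minus LH above HL minus HH, where 2.33% of all genes were; for *Plk1* the contrasts differed by 0.35 (SE 0.12, adjusted p = 0.99) and for *Cdc20* by 0.32 (SE 0.12). No probe passed the adjusted threshold of this interaction (0 called by limma, 1977 at an unadjusted p below 0.05, lowest adjusted p 0.99). Replication genes had a median of 0.09 in LL minus LH, where 10 of 34 were higher in LL at an unadjusted p below 0.05 against 2.88% of genes, and 12 of 34 passed p below 0.05 for the interaction. *Cyp1a1* (LL minus LH 1.67, contrasts 3.71 apart, SE 1.27) and *Nr1d1* (−0.35, −0.84 apart, SE 0.33) also lay on opposite sides of 0 under the 2 dam diets. *Xist* was high on LL replicates 1, 3 and 5 and on no LH array. The list values for LL minus LH and for the interaction were not computed without these arrays. The interaction also contains HL minus HH, so its counts are not separate from those given for that contrast.

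**Figure D5:**
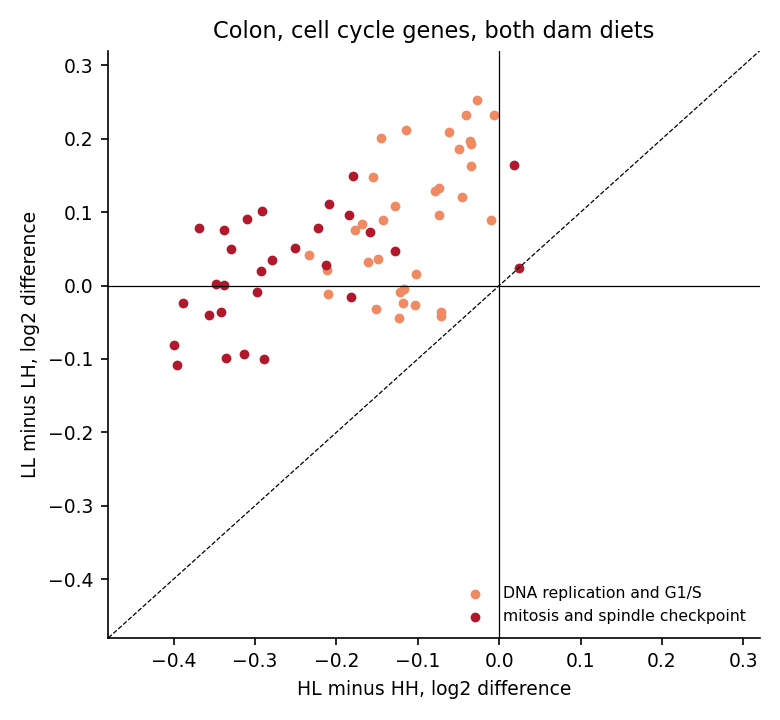
Log2 difference of each mitosis gene (red) and each DNA replication gene (orange) for HL minus HH (horizontal axis) against LL minus LH (vertical axis) in the colon; the dashed line marks equal differences. All but 1 of the mitosis genes lie above the line, most of them left of −0.2 and between −0.11 and 0.16 on the vertical axis.

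In liver, HL minus HH gave a median of −0.23 for the mitosis genes, 8 of 29 lower at an unadjusted p below 0.05 against 3.38% of genes; *Cdc20* was −0.59 (SE 0.23, adjusted p = 0.789), and colon minus liver was 0.19 (SE 0.32). The *Dbp*-phase genes had a median of 0.57 in liver, 7 of 12 higher at an unadjusted p below 0.05 against 2.93% of genes, with *Dbp* at 1.54 (SE 0.59) and *Ciart* at 1.65 (SE 0.50). The labels carry different animal codes for liver and colon, while the study took both tissues from its offspring. Whether some codes belong to the same mouse cannot be told from them, and the fit did not pair the tissues. The liver HH group holds 5 mice, since 2 of its arrays carry the same animal code and were averaged. The liver and tissue values come from a fit of all groups without the slide block. *Tyms* lay at −0.01 in liver. No probe was called for a difference between the tissues (0 by limma, 859 at an unadjusted p below 0.05).

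Only 10 genes (0.0542%) had HH and HL arrays that did not overlap, and none of the genes named above was among them.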

How the data were processed

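RNA of whole colon and liver was hybridised to Agilent arrays of 2 colours. The scanner files that the authors deposited hold unnormalized median intensities of spots and local background, and processed intensities of the scanner software. Log2 ratios, with the reference over the mouse, were deposited as a table that matched loess without background correction. The submitters' processing notes name R 3.0.2 and limma. Signals were computed anew with R 4.3.3 and limma 3.58.1. A local background above its own spot's signal was set to the array's median background, since such values compressed the ratios of HH replicates 1 and 4. Then normexp (offset 50) and loess within each array were applied, control and outlier-flagged spots were dropped, and spots of a probe were averaged. The 24 colon arrays were fitted as 4 groups with slide as a block. Replicates are different mice by their labels, numbered in accession order within a group, and HH and HL arrays of the same number share a slide. A probe was called at a Benjamini-Hochberg adjusted p below 0.05 and a fold change above 1.5, with at least 3 values per group. The interaction came from the same fit. Liver and tissue differences came from a fit of all groups of both tissues without the slide block, since the averaged liver animal lies on 2 slides. The methods were tested on simulated data.

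Names came from the probe accessions through the reference gene table: 27050 of 41174 probes were named, for 18434 genes, and 14124 probes stayed unnamed. Each gene is shown by its probe of highest mean Cy3 signal. Named genes are those above a fold of 1.5 in order of p, the 3 of lowest p in each of 38 lists, and a set of selenium, folate and sex-linked genes, of which some are not reported here. The comparison and the lists were chosen with earlier results of these data known. Arrays give no read depth, and the number of arrays limits the precision. Alternatives covered background, normalization, filters, slide and single arrays.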

Additional observations from a re-analysis of the deposited data

Results flagged for a closer look

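Among 326 groups of 6 arrays, over the named genes and the list means, 21 held an array whose gap to the nearest other array was large for the range of the group (Dixon's test). Chance flags about 1 in 20 groups, which is 16.3 here, so most of these flags are no more than that rate gives. The values are log2 ratios, or mean centred log2 ratios for a list, and none was weighed further.

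HH replicate 4 was the highest of its group for 3 genes of surface and goblet cells: *Aqp8* at −0.58 (other HH arrays −3.74 to −3.13), *Aqp4* at −0.73 (−2.44 to −1.84) and *Retnlb* at −2.72 (−4.49 to −3.97). Replicate 3 was the highest in both groups for *Sephs2*, at −1.02 in HH (others −1.68 to −1.56) and −0.69 in HL (−1.64 to −1.30). HL replicate 3 was also highest for *Snap25* at 1.22 (others up to 0.60), *Acot2* at −0.06 (others up to −0.66) and *Ugt2b34* at 0.91 (others up to 0.31). HH replicate 3 was lowest for *Hspe1* at −1.10 and HH replicate 1 for *Lep* at 0.60.

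HL replicate 5, on which *Xist* was high, was flagged for *Xist* at 2.38 (other HL arrays −5.09 to −3.11), *Ddx3y* at −4.20, *Eif2s3y* at −5.80 and the mean of the sex-linked genes at −1.04. It was also the lowest HL array for *Nkg7* at −0.36 (others 0.35 to 0.68) and for the mean of the T cell genes at −0.47 (others −0.14 to 0.06). HH replicate 5 was lowest for *Eif2s3y* at −1.49. HL replicate 1 was highest for *Chgb* at 3.11. HL replicate 4 was highest for *Try5* at −3.35 and for the mean of pancreatic acinar genes at 0.39, and HL replicate 6 was lowest for the mean of adipocyte genes at −0.84 (others 0.16 to 0.73). No interaction or tissue difference passed the adjusted threshold.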

How the results depend on the processing

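Over 27 alternative settings, 26 planned and 1 chosen after seeing the data (the mean over all probes of a gene), the count of called probes in *HH vs. HL* was 0 in each setting that gave it except one: 1 unnamed probe was called with the processed signals of the scanner software (adjusted p = 0.0375). No probe was called for the interaction or the tissue difference in any setting run for them. The 1350 probes at an unadjusted p below 0.05 became 602 with no replicate block (slide left out), 3344 without the background repair, 2059 with processed signals, 2399 with median centring and 877 over probes well above background, and 965 to 1951 without single arrays. The share lower in HL was 55.6%, against 69.7% with processed signals, 47.7% with only the HH and HL arrays and 850 of 1701 probes with array position as a further factor. The 22 mitosis genes became 13 with no replicate block, 13 with median centring, 12 without the high-*Xist* arrays, and 16 to 26 without single arrays, while the list median stayed between −0.38 and −0.19. The pairing of HH and HL is that of the slide, whose random-block correlation was 0.305. Of 125 named genes, 95 kept their sign in every setting. Differences larger than their SE reversed for *Acot2* (−0.0625), *Dnmt3b* (−0.10) and *Sod3* (−0.16) without the repair, *Dnmt3a* (0.0035), *Timm17b* (0.0018) and *Trnau1ap* (0.0189) with median centring, *Tnfrsf13b* (0.10) with processed signals, *Ccn1* (−0.0291) without the high-*Xist* arrays, *Pgm5* (0.0137) with the mean over probes and *Selenop* (0.005) with Cy3 alone. The cause was not tested. Low spots, whose signal is near background, have the least certain ratios.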
